A study of Mus musculus with 3 samples.

Results

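Haemoglobin-rich barcodes were taken from droplet single-cell RNA libraries of the inner lining of the mouse aortic arch. A barcode is the tag that marks the RNA of 1 droplet, and a UMI is a molecular tag that counts 1 captured RNA molecule. A barcode was a member when it held at least 500 UMIs and when genes with a symbol starting Hba- or Hbb- held at least 50% of them, with no minimum of genes. Of 12082 deposited barcodes, 1306 met this rule, 727 of 6000 in the LPS library, 262 of 1269 in control replicate 1 and 317 of 4813 in control replicate 2. The members were thus chosen by their globin UMIs, so their globin level is a description and carries no test.

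The 3 libraries came from the lesser curvature of the arch of C57Bl/6J wildtype mice aged 12 to 13 weeks, with cells of 5 to 10 animals of both sexes pooled in each. LPS mice (1 library) had received 30 µg of ultrapure lipopolysaccharide, a bacterial cell wall product, intravenously 18 h before harvest, and control mice (2 libraries) were untreated. All animals were perfused with actinomycin D, which blocks transcription, and all tissue was digested with Collagenase D and DNAse I before cells were dislodged by pipette. The control libraries are numbered in the order of their records. Because nothing beyond the pooling says that the libraries were separate experiments, p-values measure only the spread between these samples, which may be technical.

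Red blood cells leave the marrow as reticulocytes, which have lost their nucleus and still hold globin RNA. As reticulocytes mature in blood they break down mitochondria, ribosomes and the remaining RNA, so the amount of globin and erythroid RNA falls with age in the circulation. Adult haemoglobin joins a pair of alpha chains, from Hba-a1 and Hba-a2 on chromosome 11, with a pair of beta chains, which in C57BL/6 mice come from Hbb-bs and Hbb-bt on chromosome 7. Alas2 encodes the erythroid enzyme for the first step of haem synthesis.

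The 4 adult globin genes defined the members, and the 150 bases before the start of each are shown because the balance between these genes is described next. Sequences are from RefSeq on GRCm38.p6 and are written 5′ to 3′ on the strand of the gene, with the letters CCAAT of the CCAAT box, the letters CACCC of the CACCC box and the letters ATATAA of a TATA box in capitals. A CCAAT on the other strand reads ATTGG here. The stretches are chr7:103827929-103828078 on the minus strand for Hbb-bs, chr7:103813924-103814073 on the minus strand for Hbb-bt, chr11:32283522-32283671 on the plus strand for Hba-a1 and chr11:32296342-32296491 on the plus strand for Hba-a2.
Hbb-bs: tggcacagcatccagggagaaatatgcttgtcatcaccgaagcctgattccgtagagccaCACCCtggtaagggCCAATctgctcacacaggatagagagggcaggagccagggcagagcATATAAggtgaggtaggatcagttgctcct
Hbb-bt: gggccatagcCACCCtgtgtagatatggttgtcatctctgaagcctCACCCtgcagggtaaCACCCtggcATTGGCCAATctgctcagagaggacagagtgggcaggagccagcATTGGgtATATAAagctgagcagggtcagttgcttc
Hba-a1: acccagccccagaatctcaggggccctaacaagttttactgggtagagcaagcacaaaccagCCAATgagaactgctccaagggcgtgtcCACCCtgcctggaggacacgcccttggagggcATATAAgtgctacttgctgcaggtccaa
Hba-a2: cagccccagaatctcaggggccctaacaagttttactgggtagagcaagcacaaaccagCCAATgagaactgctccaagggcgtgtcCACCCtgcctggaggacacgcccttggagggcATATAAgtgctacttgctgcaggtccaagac

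All 4 stretches held each of these boxes. Searched on both strands over the same length, CCAAT was in 24.5% of 32851 RefSeq promoters, CACCC in 37.4% and ATATAA in 5.35%, and 0.423% held all 3. Hbb-bt held 3 CACCC boxes and 3 CCAAT boxes, 2 of them on the other strand, while Hbb-bs held 1 box of each kind. The sequence AGATAA, to which GATA factors bind and which 5.65% of promoters held, was not in any of the 4 windows. The Hba-a1 and Hba-a2 stretches were identical over 147 aligned bases, against 115 of 143 for Hbb-bs and Hbb-bt. The coding sequences of Hba-a1 and Hba-a2 matched at 428 of 429 bases, and the transcript ends that a 3′ library reads matched at 74 of 74, so the split of UMIs between these 2 genes is uncertain. Hbb-bs and Hbb-bt matched at 443 of 444 coding bases but at only 95 of 128 aligned bases after the coding sequence, where reads can tell them apart.

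Members held 12.1% of the LPS library's barcodes, with an exact Clopper-Pearson 95% interval of 11.3 to 12.97, against 20.7% (18.5 to 22.98) in control replicate 1 and 6.59% (5.90 to 7.32) in control replicate 2. They held 29.5% of all UMIs in the LPS library, against 47.5% and 9.48% in the controls, so the LPS library lay between the controls on both shares. Intervals here cover counting error only, and 1 library against 2 cannot reach an exact permutation p below 0.333, so no share was tested. Library totals were 21864072 UMIs for LPS and 4940996 and 20069697 UMIs for the controls, and the smallest deposited barcode held 1750 UMIs for LPS and 501 and 1117 for the controls. Of the globin UMIs of each library, 97.3% in the LPS library and 99.6% and 93.6% in the controls lay in members. Of 9 barcodes that occurred in more than 1 library, 0 were members.

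The libraries also differed in what members held beside globin. Median UMIs per member were 8489 in the LPS library, 8680 in control replicate 1 and 5896 in control replicate 2, of which 1455, 622.5 and 1170 were not globin. Gm42418, a transcript annotated over ribosomal RNA sequence, took 50.6% of the non-globin UMIs of LPS members, against 51.0% and 3.80% in the controls, and mitochondrial genes took 6.99%, against 10.95% and 20.6%. Median genes per member were 422, against 124 and 614. After each member was thinned to 100 non-globin UMIs, with 0 left out, the medians were 45 genes in LPS members and 33 and 79 in control members, in the same order. The LPS library lay between the controls in genes per member and in the Gm42418 share, above both in non-globin UMIs per member and below both in the mitochondrial share.

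The erythroid label was checked against its markers. Alas2, on chromosome X from 150547375 to 150570638 on the plus strand (GENCODE vM21, mm10), was not used by the rule. It averaged 10.7 UMIs per LPS member (exact Poisson 95% interval 10.5 to 10.9), against 9.71 (9.34 to 10.1) and 9.71 (9.37 to 10.1) per member of the controls. At least 1 Alas2 UMI was in 90.9% of LPS members and in 80.9% and 88.3% of control members. T-lineage barcodes, which hold at least 3 UMIs of T-cell receptor complex genes and should lack Alas2, had one in 1.11% of 90 LPS barcodes, in 0 of 170 in control replicate 1, which allows a share of up to 1.76%, and in 0.825% of 1940 in control replicate 2. Their median depths were 5457, 3879 and 4098 UMIs, so in total UMIs they were shallower than members in every library. In non-globin UMIs they were deeper, with means of 6447, 6460 and 5534, against 1477, 697 and 1310 in members. Alas2 was thus rarer in T-lineage barcodes although these held more non-globin UMIs on average. Of 15 further erythroid markers, 14 were above the other barcodes in every library, and Ahsp was not analysed here.

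Globin UMIs were also in most barcodes outside the members. Of the T-lineage barcodes, 98.9% in the LPS library held at least 1 globin UMI, with a median of 5, against 81.2% and 70.4% in the controls, with medians of 2 and 1. The limit of 50% globin cut through a thin tail. In the LPS library 20 barcodes lay just inside it, at 50 to 55% globin, with 1.05 Alas2 UMIs on average, and 25 lay just outside, at 45 to 50%, with 1.16. Control replicate 1 had 5 inside with 0.4 and 6 outside with 0.833 Alas2 UMIs, and control replicate 2 had 27 inside with 1.07 and 23 outside with 1.22. Alas2 was thus low on both sides of the limit, and the members rich in it lay well above.

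Beyond the markers, 330 genes other than Hba and Hbb genes had at least 20 UMIs in the members of each library. Of these, 27 stood at 10 times the level of all other barcodes or more in every library, per 1000000 non-globin UMIs, and 104 stood below the others in every library. This is the contrast that the rule itself sets, so it is given as a description. Among the largest ratios, taken as the smallest of the 3 libraries, were those of Alas2, Apol11b, Hbq1b, 1 of 2 genes named Fam220a (ENSMUSG00000118332), Hbq1a, Gm10371, Rec114, Bpgm, Tent5c and Ube2l6. Bpgm encodes the enzyme that makes the phosphate ligand that lowers the oxygen affinity of haemoglobin, and averaged 6.32 UMIs in LPS members and 8.43 and 6.56 in control members. Bpgm per member thus varied less between libraries than non-globin UMIs per member did. Bpgm was in 70.2% of LPS members and in 62.2% and 69.7% of control members, against 16.7%, 17.6% and 21.2% of T-lineage barcodes in the same libraries, at the median depths given above.

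Genes of haem synthesis, iron storage and protein clearance were detected in members of every library. Slc25a37, the mitochondrial iron importer mitoferrin that feeds haem synthesis, averaged 2.74 UMIs per LPS member and 1.45 and 1.41 per control member. Fech, which inserts iron into the haem ring, averaged 1.65, against 1.39 and 1.78. The middle steps were near 0, with Urod at 0.0358, against 0.0305 and 0.0663, and Alad at 0.00688, against 0.00763 and 0.0126. Ferritin light chain Ftl1 averaged 8.99 in LPS members and 10.8 and 9.36 in control members. Of genes for clearing proteins and organelles, ubiquitin Ubb averaged 6.17 against 6.91 and 6.26, the ubiquitin ligase Mkrn1 4.34 against 6.24 and 4.59, and the conjugating enzyme Ube2l6 3.286 against 3.099 and 3.243. Bnip3l, needed for the removal of mitochondria from reticulocytes, averaged 2.68, against 2.42 and 2.29. The 3 libraries were thus close to one another for most of these genes.

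The membrane genes Slc4a1 and Tfrc and the erythroid transcription factor genes Klf1 and Gata1 had few UMIs. The whole list of 30 membrane and skeleton genes summed to 5.67 UMIs per LPS member and 3.84 and 4.39 per control member. Epb41 and Cd24a had the highest mean levels in it, and 14 of the 30 stood above the other barcodes in every library. Slc4a1, the band 3 anion exchanger, averaged 0.131 UMIs per LPS member and 0.0916 and 0.0599 per control member. Tfrc, the transferrin receptor that reticulocytes shed, had 8 UMIs in all LPS members and 1 and 8 in control members. The erythroid transcription factor gene Klf1 had 0 UMIs in members of every library, and Gata1 had 3 in LPS members and 2 and 0 in control members. Ube2c, a ubiquitin-conjugating enzyme of mitosis, averaged 0.303, against 0.313 and 0.249. The platelet gene Pf4 had 10 UMIs in LPS members and 2 and 9 in control members.

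The balance of the globins was not used by the rule. Of globin UMIs in members, alpha globins took 43.4% in the LPS library and 40.8% and 29.5% in the controls. Hba-a1 averaged 1807 UMIs per LPS member (SD over members 885), against 1917 (1235) and 791 (401) in the controls. Hba-a2 averaged 1401 (724), against 1455 (960) and 592 (313). Hbb-bs averaged 3609 (1858), against 4172 (2651) and 2873 (1430), and Hbb-bt 567 (571), against 717 (786) and 434 (435). LPS and control replicate 1 were close to each other and control replicate 2 stood apart on the alpha share, so the difference of the LPS value to the control mean, 8.29 percentage points, was about the size of the SD of the controls, 8.01.

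**Figure D1:**
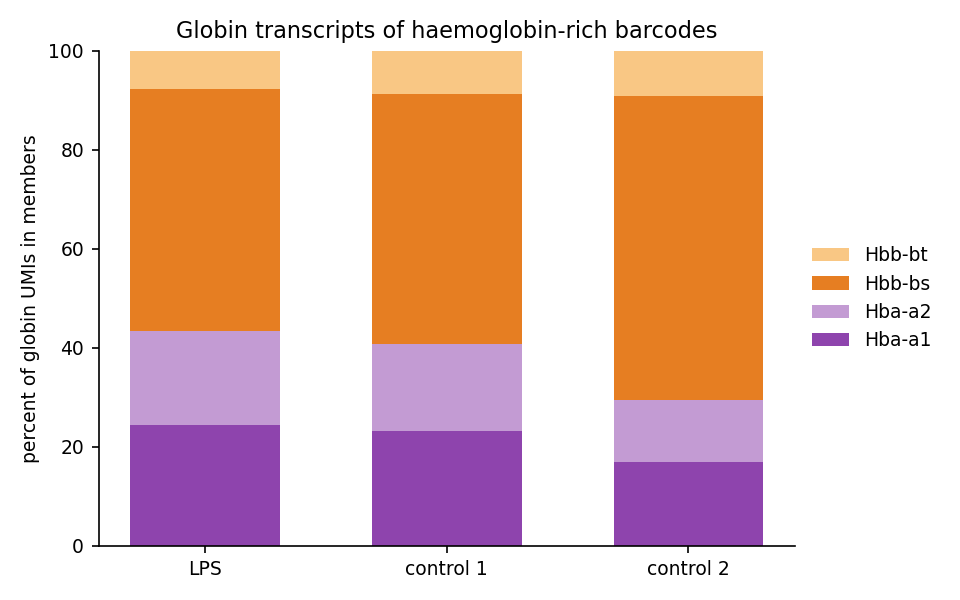
Share of each adult globin gene in the globin UMIs of all members, in percent, for the LPS library and control replicates 1 and 2. The alpha genes Hba-a1 and Hba-a2 together took 43.4% in LPS and 40.8% and 29.5% in the controls, and Hbb-bt took 7.67%, 8.67% and 9.24%.

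Within each chain the shares were closer. Hba-a2 took 43.7% of Hba UMIs in LPS members and 43.1% and 42.8% in control members, a split that the near identity of these genes leaves uncertain. Hbb-bt took 13.6% of Hbb UMIs in LPS members and 14.7% and 13.1% in control members, so the LPS value lay between the controls. Outside the members the pooled share was 7.21% in the LPS library and 7.10% and 3.87% in the controls, and it differed with globin content. Barcodes at 10 to 50% globin had 5.08% in the LPS library and 2.00% and 3.15% in the controls, and those under 10% globin had 11.98%, 17.4% and 11.4%. In T-lineage barcodes it was 22.5% in the LPS library and 27.3% and 6.50% in the controls. Of the embryonic globins, Hbb-y had 2 UMIs in LPS members and Hba-x, Hbb-bh1 and Hbb-bh2 had 0 in every library, while the theta-like genes Hbq1a and Hbq1b had 138 and 69 UMIs in LPS members, 69 and 38 in control replicate 1 and 65 and 27 in control replicate 2.

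Members were not uniform in their beta globins. The Hbb-bt share of a member's Hbb UMIs ran from 0.223 to 26.95% in the LPS library, from 0 to 28.4% in control replicate 1 and from 0 to 25.8% in control replicate 2, with medians of 9.38, 8.80 and 8.71%. Its SD over members was 7.01 percentage points in LPS and 7.90 and 7.20 in the controls, where counting alone would give 0.678, 0.893 and 0.729. By contrast, the Hba-a2 share of Hba UMIs had an SD of 2.85, 2.50 and 3.01, against 1.05, 1.30 and 1.60 from counting.

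Members with a high Hbb-bt share held more globin and more Alas2. Across members, Spearman's rho between the Hbb-bt share and globin UMIs was 0.808 in the LPS library (727 members), 0.852 in control replicate 1 (262) and 0.831 in control replicate 2 (317). With Alas2 UMIs it was 0.685, 0.775 and 0.729, and with Malat1, a nuclear RNA, 0.00631, 0.0336 and -0.00366. These points share a library and the depth of each barcode, and the globin UMIs enter both the share and the total, so the values describe these libraries only.

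**Figure D2:**
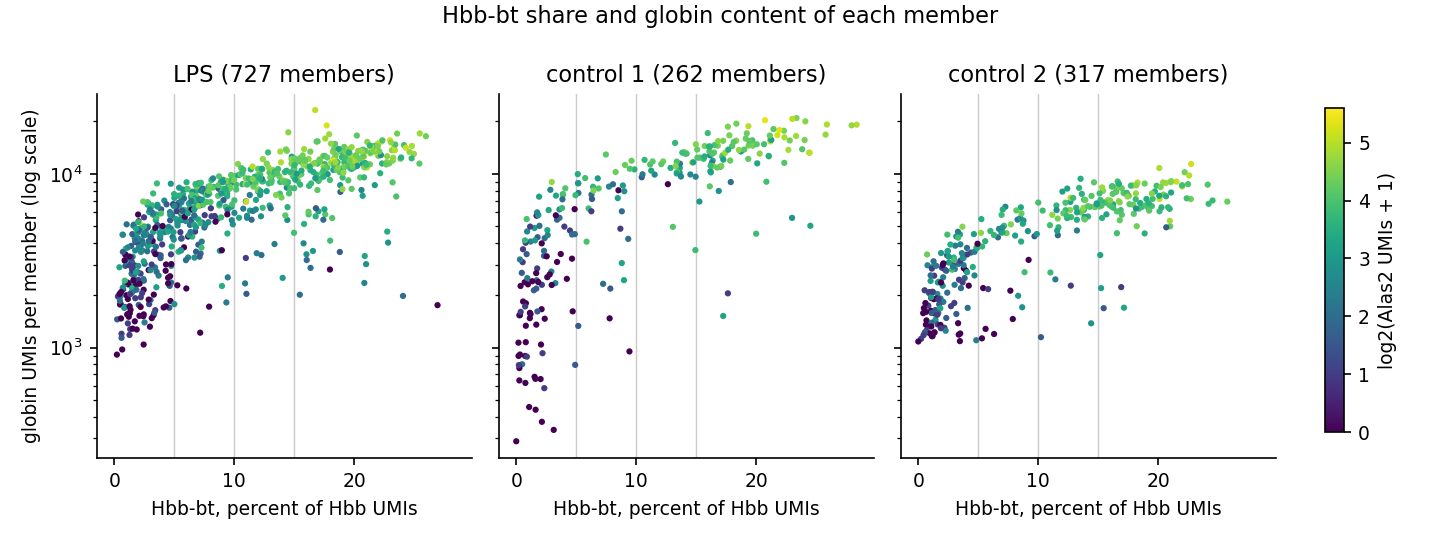
Each point is 1 member, with the Hbb-bt share of its Hbb UMIs in percent on the x axis and its globin UMIs on a log y axis, coloured by log2(Alas2 UMIs + 1), for the LPS library and control replicates 1 and 2. Grey lines mark 5, 10 and 15%. In each panel globin UMIs and Alas2 were higher at higher Hbb-bt shares, with rho of 0.808, 0.852 and 0.831 for globin UMIs.

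For a closer view members were put into 4 classes of Hbb-bt share, under 5%, 5 to 10%, 10 to 15% and 15% or more, limits chosen after the values were seen. The LPS library had 218, 167, 118 and 224 members in these classes. Control replicate 1 had 105, 36, 31 and 90, and control replicate 2 had 125, 40, 52 and 100. Alas2 averaged 3.96, 8.43, 13.7 and 17.3 UMIs per member from the lowest to the highest class in the LPS library. In control replicate 1 it averaged 2.69, 8.11, 11.97 and 17.8, and in control replicate 2 it averaged 3.67, 7.95, 12.5 and 16.5. The highest class thus held 4.38 times the Alas2 of the lowest in LPS and 6.62 and 4.49 times in the controls. The alpha share of globin UMIs was somewhat lower in the highest class, at 41.6% and 46.9% in the highest and lowest LPS classes, 40.02% and 43.9% in control replicate 1 and 28.5% and 30.7% in control replicate 2.

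Several other erythroid genes differed more between the classes than Alas2 did. Mkrn1 averaged 10.1 UMIs per member in the highest class and 0.390 in the lowest in the LPS library, a ratio of 25.8, against ratios of 56.6 and 25.4 in the controls. Bpgm had ratios of 19.6 in LPS and 35.1 and 16.2 in the controls. Isg20, an exonuclease gene inducible by interferon, had ratios of 9.71 in LPS and 10.3 and 10.4 in the controls. Gpx1, which removes peroxides, averaged 7.44 in the highest LPS class and 0.151 in the lowest. These classes averaged 7.64 and 0.0476 in control replicate 1 and 4.41 and 0.536 in control replicate 2. Gabarapl2, an autophagy gene, had ratios of 9.38 in LPS and 22.5 and 9.51 in the controls, and Bnip3l had 7.40, 11.3 and 6.13. Prdx2, a peroxidase gene abundant in red cells, had 43.7 in LPS and 31.1 and 5.47 in the controls. Of the 27 genes at 10 times the rest or more, 20 had over 3 UMIs in the lowest class of every library, and relative to globin UMIs 17 of these were higher in the highest class in all 3 libraries and 0 were lower in all 3. Ferritin Ftl1, which did not reach 10 times the rest in every library, had ratios per globin UMI of 0.780 in LPS and 0.929 and 0.730 in the controls.

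Several transcripts that are not erythroid were at similar levels in these classes. Gm42418 averaged 776 UMIs per member in the highest LPS class and 714 in the lowest, a ratio of 1.09, against ratios of 1.19 and 0.958 in the controls. The 13 mitochondrial genes summed to ratios of 1.05 in LPS and 1.03 and 1.11 in the controls, and 10 smooth muscle genes to 1.05, against 1.30 and 1.02. In LPS members the acute-phase genes Lcn2, Saa3 and Mt1 had ratios of 0.993, 1.09 and 1.03. A member of the highest class thus held about as many UMIs of these genes as one of the lowest class, while the median globin UMIs of these LPS classes were 11530 and 3288. T-lineage genes were an exception in the controls. The T-lineage list averaged 0.0223 UMIs per member in the highest LPS class and 0.0367 in the lowest, a ratio of 0.608, against ratios of 30.04 and 5.34 in the controls. Mean Malat1 had ratios of 1.26 in LPS and 1.75 and 2.07 in the controls, and the macrophage list had 0.799, against 2.14 and 1.23. Without the members that held at least 3 UMIs of T-cell receptor complex or macrophage genes, a choice made after seeing the data, the T-lineage ratios were 0.417 in LPS and 1.48 and 0.970 in the controls. Those of Malat1 were then 1.27 in LPS and 1.22 and 1.08 in the controls, and those of the macrophage list 0.880 in LPS and 2.16 and 0.995 in the controls.

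**Figure D3:**
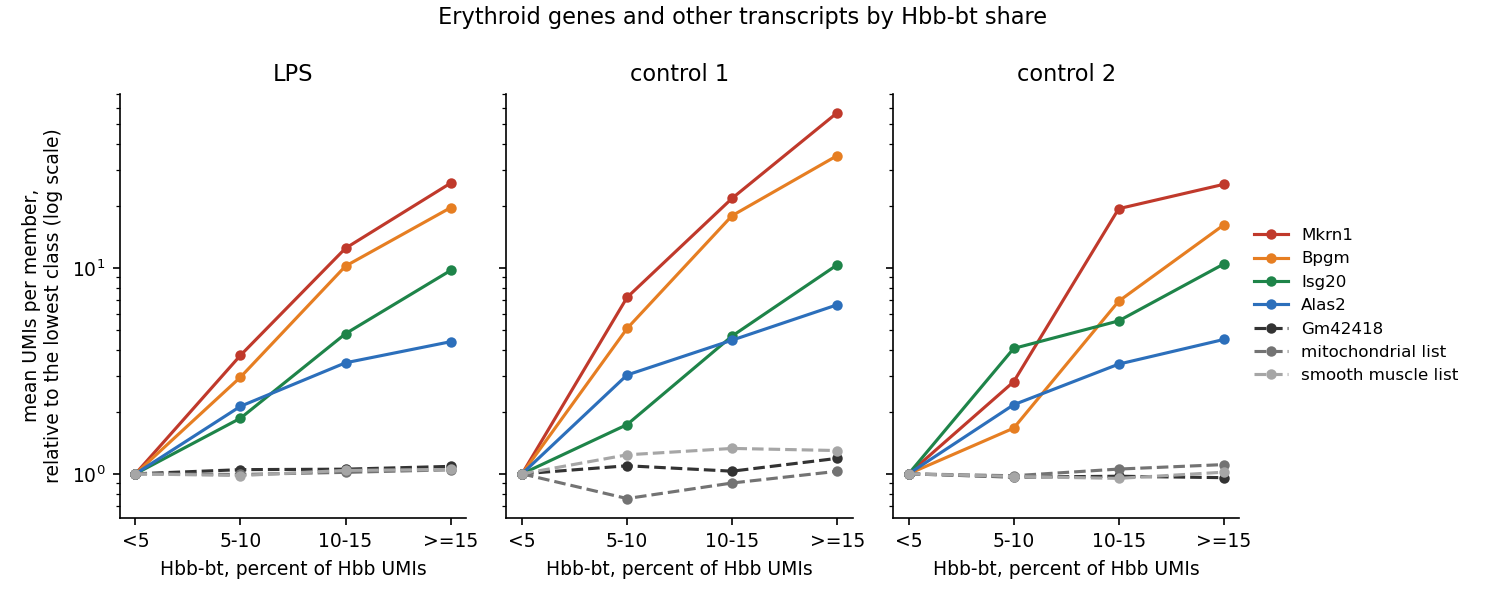
Mean UMIs per member in 4 classes of Hbb-bt share, divided by the mean of the class under 5%, on a log y axis, for the LPS library and control replicates 1 and 2. Solid lines are erythroid genes, which reached ratios of 4.38 to 56.6 in the highest class, and dashed lines are Gm42418 and the summed mitochondrial and smooth muscle lists, which stayed between 0.958 and 1.30 there.

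Genes that differed between LPS and control members were sought by summing the non-globin UMIs of the members of each library. The edgeR quasi-likelihood test with Benjamini-Hochberg adjustment covered 5162 genes, of which 95 passed an adjusted p of 0.05 as higher in LPS members (1.84%) and 27 as lower (0.523%), which is 2.36% in either direction. The test has 1 residual degree of freedom, given by the 2 controls, and takes the spread of the LPS library to be theirs. In bulk sums of this kind, fewer barcodes with a gene and fewer molecules per barcode cannot be told apart, so shares of barcodes are given for the genes that matter. Of the acute-phase and LPS-response list, 19 of 25 tested genes were higher and 0 lower in LPS members, with a median log2 fold change of 5.18, beside -0.06 over all genes tested. Of the interferon response list, 14 of 32 were higher and 0 lower, with a median of 3.05. A filter on low counts, which 1 library alone could meet, set which genes were tested. At least 20 UMIs were held by 25 acute-phase genes in LPS members, against 0 and 5 in control members. For the interferon list these counts were 33, against 2 and 9. Many listed genes thus entered through the LPS library, where they were high, so these counts and medians are descriptions only. Of 12 listed neutrophil genes, only Lcn2, S100a8 and S100a9 were tested, and these 3 were higher. The list had 0 and 1 UMIs in control members, so genes that entered through the LPS library could only come out higher.

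The largest differences were those of genes with 0 UMIs in control members. Lcn2, which encodes an iron-siderophore-binding acute-phase protein, averaged 2.55 UMIs per LPS member and had 0 UMIs in members of both controls. Its level per member was at least 492-fold higher in LPS, taking 3 UMIs over all control members as the floor (adjusted p = 0.000137, edgeR). Folds over this floor are per member, whereas the adjusted p values are from the edgeR fit with its own scaling factors. When the test was scaled per member, only Gm42418 passed. Saa3, an acute-phase serum amyloid, averaged 0.957 UMIs per LPS member and had 0 in both controls, at least 185-fold higher (adjusted p = 2.56e-05). The chemokine gene Cxcl9 averaged 0.241, against 0 and 0, at least 46.5-fold higher (adjusted p = 2.56e-05). The neutrophil alarmin genes S100a9 and S100a8, with 84 and 66 UMIs in LPS members and 0 in members of both controls, were at least 22.3-fold and 17.5-fold higher (adjusted p = 0.000137 and 0.000331). The whole list of 12 neutrophil genes, Lcn2 included, had 2035 UMIs in LPS members and 0 and 1 in control members, with 2 of the 12 genes at 0 in LPS members. Whether neutrophil RNA had a part in these values was not tested.

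Further named genes were low but present in control members. The metallothionein gene Mt2 averaged 3.02 UMIs per LPS member, against 0 and 0.0663 (83.4-fold higher per member than both controls pooled, adjusted p = 0.00603, edgeR). Gbp2, an interferon-induced GTPase gene, averaged 1.10, against 0 and 0.0694 (log2 fold change 5.45 ± 1.35 SE, adjusted p = 0.005, edgeR). Ccl5, Gbp5, Serpina3n, Ifit1, Hp, Ctps and Cxcl1 averaged 0.255 to 0.403 UMIs per LPS member and at most 0.0158 in control members. Ccl5 and Cxcl1 encode chemokines, and Hp encodes haptoglobin, which binds free haemoglobin. Each of these 7 genes passed, with log2 fold changes of 5.33 to 7.01, and each LPS value stood above both controls.

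Most of these genes were lower in members than outside them. Of the 95 higher genes, 78 were at a lower level in LPS members than in the other LPS barcodes, per 1000000 non-globin UMIs. Set against Gm42418-rich LPS barcodes outside the members (4124 barcodes with at least 40% Gm42418), the UMIs per barcode in members had a median ratio of 0.662, and 90 of the 95 genes lay within a factor of 2. Gm42418 itself had a ratio of 0.660 and the smooth muscle gene Myh11 one of 0.624. The 27 genes at 10 times the rest or more, 22 of them with a value, had a median ratio of 56.2. They were picked for a high ratio to the other barcodes, which include the Gm42418-rich ones, so this value is no independent contrast. Lcn2 UMIs over LPS members had an SD of 1.70, where counting alone would give 1.60. At least 1 was in 91.1% of LPS members and in 88.9% of T-lineage LPS barcodes. Median depths of these barcodes were 8489 and 5457 UMIs, and their mean non-globin UMIs were 1477 and 6447. The part of free RNA in these 95 calls was not tested.

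Genes lower in LPS members were led by T-lineage genes. Cd8b1 had 0 UMIs in LPS members, against 14 and 76 in control members, at least 37.7-fold lower per member. It passed with the scaling factors of edgeR (adjusted p = 0.000356, edgeR) but not when scaled per member. Cd8a had 0, against 6 and 57, at least 26.4-fold lower, and Cd3g had 0, against 4 and 56, at least 25.1-fold lower. These genes encode chains of the CD8 co-receptor and of the T-cell receptor complex. Of the 12 T-lineage genes tested, 9 passed as lower, and the recombination gene Rag1 was among the named genes with 2 UMIs in LPS members, against 12 and 56. At least 20 UMIs were held by 0 of the 12 in LPS members and by 1 and 12 in control members. The list thus entered the test through the controls, where it was high, so the count of 9 is a description only. T-lineage UMIs were concentrated in few members. The T-lineage list summed to 19 UMIs in LPS members and 110 and 759 in control members, and 89.1% and 89.5% of the control UMIs lay in 1 and 12 members that held at least 3 UMIs of T-cell receptor complex genes, whereas 0 LPS members did. The 1 such member of control replicate 1 held 1378 non-globin genes, and the 12 of control replicate 2 had a median of 1920, while the remaining members had medians of 120 and 609. When members with at least 3 UMIs of T-cell receptor complex or macrophage genes were left out, 6 in LPS and 1 and 21 in the controls, 0 of 4726 genes passed (266 at an unadjusted p under 0.05). This alternative was added after seeing the data.

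Tcap, Jph2, Fbxl22 and Ckb were also among the named lower genes. Tcap, a titin-binding sarcomere gene, had 7 UMIs in LPS members, against 17 and 201, and Jph2, a junction protein gene of muscle, had 5, against 4 and 72. Fbxl22 had 1, against 4 and 71, and Ckb, which encodes the brain-type creatine kinase, had 2, against 2 and 76. Per member each of these 4 was lower in LPS than in either control, and control replicate 2 carried most of the UMIs. Its members also held 21.96 UMIs of smooth muscle genes on average, against 3.73 in LPS members and 1.397 in members of control replicate 1. Of the 10 smooth muscle genes tested, 0 passed with edgeR and 0 with DESeq2, and 2 were lower at an unadjusted p under 0.05. Trbc1, Trbc2, Satb1 and Dbp completed the named lower genes.

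The count of calls differed between tests and tables. DESeq2 on the same sums gave 8 higher and 3 lower, whereas edgeR with the size factors of DESeq2 gave 105 and 29. Leaving Gm42418, Gm26917 and mitochondrial genes out of the table gave 0 and 0 of 6030, with 367 at an unadjusted p under 0.05. The scaling factors of edgeR were 0.941 for LPS and 0.511 and 2.08 for the controls. Scaling per member in place of them, an alternative added after seeing the data, gave 1 higher and 0 lower, the higher one being Gm42418 with a log2 fold change of 1.88 ± 0.25, with 4 genes at an unadjusted p under 0.05. Gm42418 averaged 747 UMIs per LPS member, against 355 and 49.7. By ratio, the controls were further apart from each other than LPS was from control replicate 1. The SE of 0.25 thus does not measure the spread between the controls, and no conclusion is drawn from this call.

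Of the 88 tested genes of the erythroid lists, 0 passed in either direction with edgeR and 0 with DESeq2, with 5 at an unadjusted p under 0.05. Over all 5162 genes, 2.36% passed with edgeR and 488 were at an unadjusted p under 0.05. At that share few calls would fall among 88 genes, so the count of 0 says little about them. The lists had 6 genes tested for haem synthesis, 10 for iron handling, 15 for membrane and skeleton, 17 for reticulocyte clearance, 21 for red cell metabolism and redox, 9 for erythroid factors, 2 for minor globins and 8 for cycling progenitors. The 27 genes at 10 times the rest or more had a median log2 fold change of -1.15 on the edgeR scale and of 0.03 when scaled per member, so their direction followed the scaling. Alas2 gave -0.98 ± 3.52 on the first and 0.14 on the second. The standard error of Alas2 is wide, and a several-fold difference in either direction lies inside it. Counts per member were 10.7 Alas2 UMIs in LPS members and 9.71 in members of each control.

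**Figure D4:**
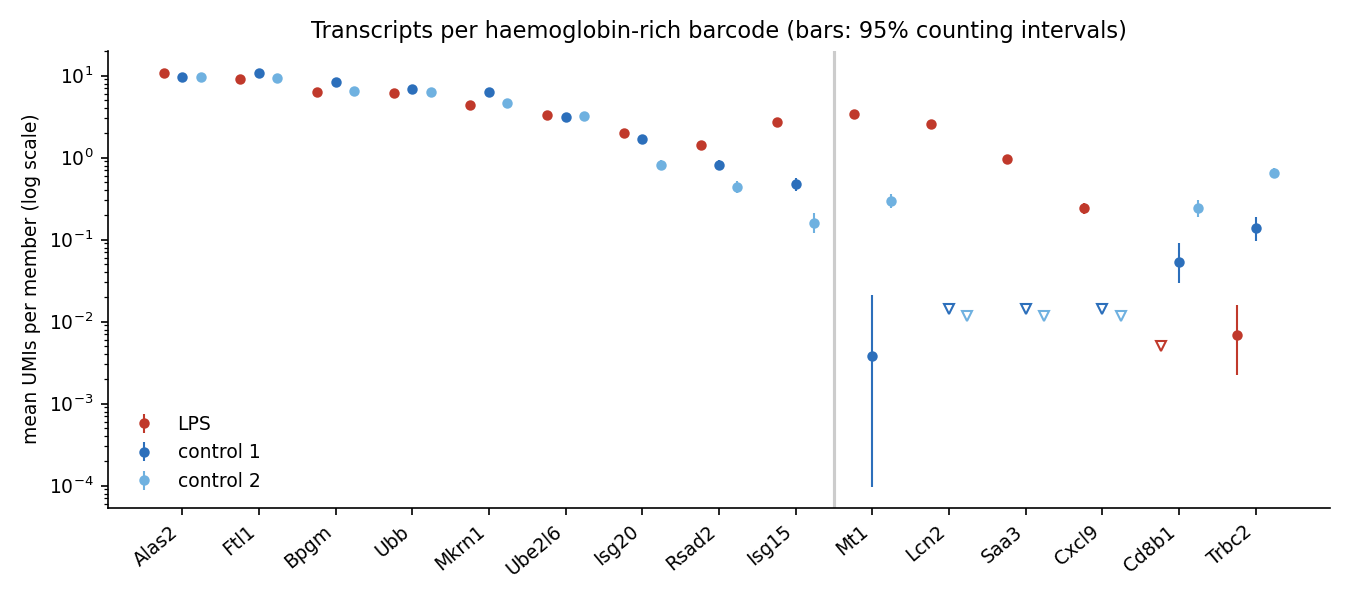
Mean UMIs per member of 15 genes on a log y axis, for the LPS library and control replicates 1 and 2, with exact Poisson 95% intervals as bars. Open triangles mark the upper limit where a library had 0 UMIs. The genes from Alas2 to Ube2l6 were close between libraries, and Isg20, Rsad2 and Isg15 were highest in LPS. Right of the grey line, Lcn2, Saa3 and Cxcl9 had UMIs only in LPS members, and Cd8b1 and Trbc2 were highest in control replicate 2.

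Whether members responded to LPS unlike the other barcodes of the same libraries was tested as an interaction over 12138 genes, with library as a block. A single gene, Gadd45b, passed (0.00824% of those tested), with 193 genes at an unadjusted p under 0.05. Gadd45b, a stress-inducible gene, had 5 UMIs in LPS members and 1 and 17 in control members. In the other barcodes it had 489 UMIs in the LPS library and 14 and 171 in the controls. The response of members minus that of the rest was -4.51 ± 0.96 (log2 ± SE, adjusted p = 0.0317, edgeR). It rests on few member UMIs and did not pass without the filter on low counts (adjusted p = 0.285) or with members of at least 70% globin (-1.58, adjusted p = 1). Of the 17 UMIs in members of control replicate 2, 12 lay in its 12 members with at least 3 UMIs of T-cell receptor complex genes. Without the members that held markers of other cells the difference was -3.17 (adjusted p = 1), and 0 genes passed, with 222 at an unadjusted p under 0.05.

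Isg15, which encodes a ubiquitin-like protein induced by interferon, was spread over members unlike the genes above. It had 1976 UMIs in LPS members, 2.72 per member, against 123 and 51 in control members, 0.469 and 0.161 per member (log2 fold change 1.55 ± 1.65, adjusted p = 0.961, edgeR). At least 1 UMI was in 30.1% of LPS members and in 19.8% and 11.7% of control members, against 73.3%, 10.6% and 7.78% of T-lineage barcodes in the same libraries. The share for LPS members was thus below that of T-lineage barcodes, which held more non-globin UMIs on average, 6447 against 1477 in LPS. The LPS UMIs lay in very few members. Of the 727 LPS members, 12 held 36 to 278 Isg15 UMIs each and 81.5% of the total, the next highest member held 9, and 508 held 0. Control replicate 1 had 1 member with 12 Isg15 UMIs and none above, and control replicate 2 had 0 of 317 members with 10 or more. As a share, 1.65% of LPS members (exact 95% interval 0.856 to 2.87) held 10 or more, against 0.382% (0.00966 to 2.11) and 0% (0 to 1.16) in the controls. The limit of 10 UMIs was chosen after the values were seen, and members of 1 library are not replicates of LPS, so no test was made.

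The 12 Isg15-rich members all held the erythroid marker Alas2, which the rule did not use, at 3 to 36 UMIs each. Their globin share was 61.8 to 88.0%, but the rule set a minimum for it, so it is only a description. The Hbb-bt share of these 12 was 10.8 to 23.9%, with a median of 15.8%, against 9.09% in the other 715 LPS members. They were deeper, with a median of 13930 UMIs and 584 non-globin genes, against 8419 UMIs and 416 genes in the others. Of 3714 non-globin genes with at least 20 UMIs in LPS members, 52.9% had a higher mean in the 12 members and 7.62% were at 5 times the others or more. Of the 15 membrane and skeleton genes among them, 14 had a higher mean and 9 were at 5 times or more. Other erythroid lists differed less. Of 18 red cell metabolism and redox genes, 11 had a higher mean and 3 were at 5 times or more. For 16 reticulocyte clearance genes these counts were 15 and 3, and for 6 haem synthesis genes 5 and 2. Slc4a1 averaged 2.33 UMIs, against 0.0937 in the others, and Mpp1, a membrane skeleton gene, 6.33 against 0.180. Car2, the carbonic anhydrase gene, averaged 3.83, against 0.351, and Epb41, which encodes the skeleton protein 4.1, 6.08 against 2.66. Alas2 was only 1.60 times as high, with 16.9 against 10.6 UMIs.

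Other interferon-induced genes were high in the same members. Rsad2, the antiviral enzyme viperin, averaged 27.7 UMIs, against 0.992 in the other LPS members, Ifitm3, a membrane antiviral gene, 30.1 against 1.75, and Irf7, an interferon regulatory factor, 7.42 against 0.364. The ISG15 protease gene Usp18 had 16 UMIs in the 12 members and 17 in the other 715. The class I genes H2-D1 and B2m averaged 10.3 and 19.2, against 0.569 and 1.75, while H2-K1 averaged 2.08 against 1.99. Of the 32 interferon response genes other than Isg15 with at least 20 UMIs in LPS members, 30 had a higher mean in the 12 members and 15 were at 5 times the others or more, beside the 52.9% and 7.62% over all genes.

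Several transcripts of other cells were at similar levels in the 12 and in the others. In the 12 members Lcn2 averaged 2.33 UMIs, against 2.55 in the others, Saa3 0.75 against 0.961, Malat1 8.5 against 9.30, and the summed smooth muscle list 3.58 against 3.74. T-cell receptor complex genes were at 0 UMIs in all 12 and macrophage gate genes in 10 of them. Over the whole lists of 12 T-lineage and 15 macrophage genes, the 12 members had 1 and 9 UMIs in all. Per member this is 0.0833 T-lineage UMIs, against 0.0252 in the others, and 0.75 macrophage UMIs, against 0.341, a ratio of 2.20 that rests on 3 of the 12 members. Outside the members, 17 LPS barcodes held 36 or more Isg15 UMIs, 9 of them macrophage barcodes with a highest value of 144, and Gm42418-rich barcodes held at most 5. The highest Isg15 value of the LPS library, 278, was thus in a haemoglobin-rich barcode. Doublets were not called, and their part in the 12 members was not tested.

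The Isg15-rich members lay in the upper classes of Hbb-bt share. In the LPS library 0 of 218 members under 5%, 0 of 167 at 5 to 10%, 5 of 118 at 10 to 15% and 7 of 224 at 15% or more held 10 or more Isg15 UMIs. Isg15 averaged 0.289, 0.473, 6.03 and 5.01 UMIs per member in these classes, and its median was 0 in each. In control replicate 1 it averaged 0.133, 0.333, 0.548 and 0.889, and in control replicate 2 it averaged 0.08, 0.225, 0.192 and 0.22. Without the 10 highest members of each class, the LPS averages were 0.183, 0.293, 0.435 and 0.584, so most members of the upper classes were low in Isg15.

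**Figure D5:**
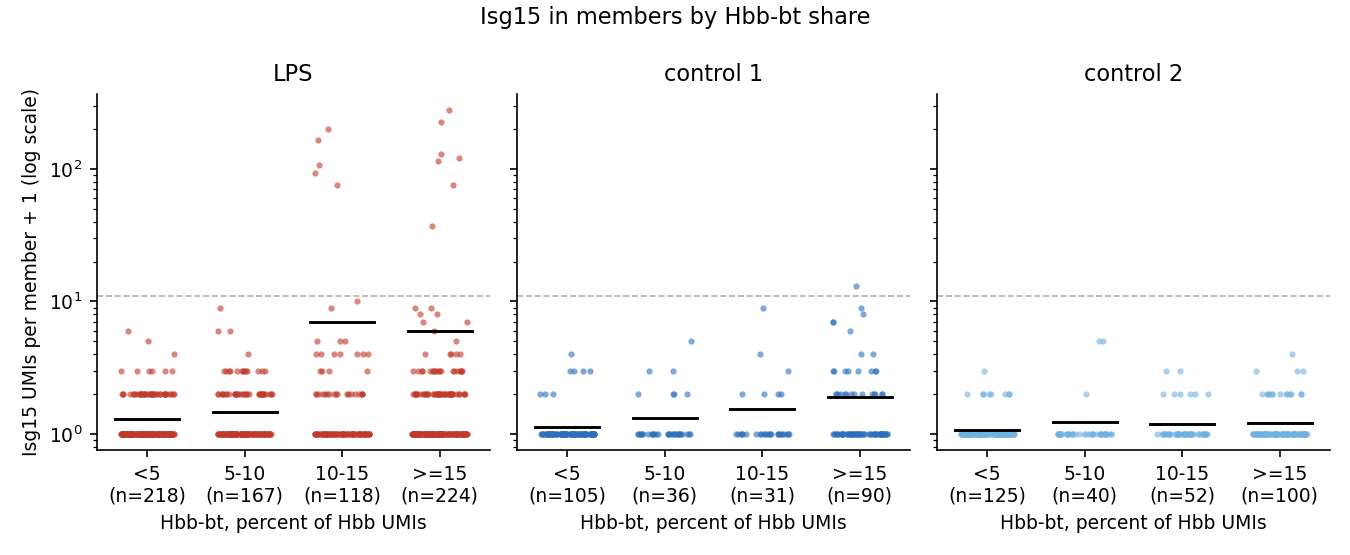
Isg15 UMIs per member plus 1 on a log y axis, for 4 classes of Hbb-bt share of Hbb UMIs in percent, in the LPS library and control replicates 1 and 2. Points are members, black lines are means, and the dashed line marks 10 UMIs. In LPS, 12 members lie above the line, 5 at 10 to 15% and 7 at 15% or more, and a gap parts them from the next highest at 9. In the controls, 1 and 0 members lie above it.

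Rsad2 was present in members of every library and followed the Hbb-bt classes in each. It averaged 1.43 UMIs per LPS member, against 0.809 and 0.438 (log2 fold change -0.21 ± 1.74, adjusted p = 0.993, edgeR). From the lowest to the highest class of Hbb-bt share it averaged 0.261, 0.299, 1.78 and 3.23 in LPS members. In control replicate 1 it averaged 0.0286, 0.139, 0.677 and 2.03, and in control replicate 2 it averaged 0.048, 0.125, 0.308 and 1.12. At least 1 Rsad2 UMI was in 62.5% of the highest LPS class and in 61.1% and 49.0% of those of control replicates 1 and 2. In T-lineage barcodes it was in 38.9% of LPS barcodes and in 1.18% and 1.29% of control barcodes, at the depths given above.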

How the data were processed

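Droplet libraries of 1 LPS and 2 control pools were used. The authors deposited unnormalised UMI counts of 32285 genes per barcode. The submitters' processing notes name Cell Ranger 3.1, R 4.2.1, Seurat 4.2.0 and mm10. The annotation release and the selection of barcodes were not given in the sources used here.

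Computed here were members per library (Python 3.11.15, scipy 1.17.1), their UMIs per gene, and sums of non-globin UMIs per library, since barcodes are not replicates. The sums were tested with edgeR 4.0.16 in R 4.3.3 (TMM factors, filterByExpr, quasi-likelihood test, adjusted p threshold 0.05), with DESeq2 1.42.0, other scalings, filters, globin limits and left-out libraries as alternatives. The LPS library is taken to vary like the controls. Each SE was derived from the edgeR test, as the absolute log2 fold change over the square root of the F statistic. The fit was tested on data simulated from the mean profile of the members. Such data leave out the differences between the real controls, so the simulation cannot vouch for these calls. Intervals are exact at 95% and cover counting error only. The floor for a count of 0 is 3 UMIs. Doublets were not called, and no filter on mitochondrial UMIs was set. Ratios to the rest are per 1000000 non-globin UMIs.

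Up to 12 genes each way were named, by size of fitted change. They had to pass, to average 50 or more UMIs per 1000000 over the libraries and to have the LPS level outside both controls. Predicted, mitochondrial and ribosomal protein genes were left out. Also named were the markers, the globins, the 12 genes with the largest ratio to the rest and up to 6 abundant genes per list. The members and the 25 gene lists were chosen with earlier results of these data known. Some genes that the rule names are not reported here. The classes by Hbb-bt share and by Isg15, and genes named from them, were chosen after their values were seen.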

Additional observations from a re-analysis of the deposited data

Results flagged for a closer look

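The interaction test singled out Gadd45b, for which the LPS response of haemoglobin-rich barcodes minus that of all other barcodes was -4.51 on the log2 scale. It had 5 UMIs in LPS members and 1 and 17 in control members, against 489 UMIs in other LPS barcodes and 14 and 171 in those of the controls. Per 1000000 non-globin UMIs the levels were 4.66 in LPS members and 5.48 and 40.9 in control members, with the highest level in control replicate 2. Of the 17 UMIs there, 16 lay in members at 50 to 70% globin, which also held 689 of the 759 T-lineage UMIs of that library's members, and 12 lay in the 12 members with at least 3 UMIs of T-cell receptor complex genes. Without members that held markers of other cells the difference was -3.17 (adjusted p = 1, edgeR).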

How the results depend on the processing

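The main test gave 95 genes higher and 27 lower in LPS members. Higher counts were 8 with DESeq2, 33 without a filter on low counts, 0 without Gm42418 and mitochondrial genes, 1 when scaled per member and 0 without members that held markers of other cells. Lower counts under these settings were 3, 6, 0, 0 and 0, with 49 when globin genes were kept and 9 at 70% globin. The last 2 settings of the first list were added after seeing the data. With edgeR and the size factors of DESeq2 the counts were 105 and 29. Other settings left both counts within 1.5 times. The interaction gave 1 gene, and 0 without the filter, at 70% globin or without members that held markers of other cells. The cause was not tested.

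On the log2 scale 3 genes changed sign, none of which passed in any setting. Alas2 (-0.98) gave 0.14 per member, and -1.96 to 0.94 without a control. Isg20 (-0.78) gave 0.67, and -1.85 to 2.08. Rsad2 (-0.21) gave 1.20, and -1.27 to 2.51, with 0.11 without the filter. Gadd45b kept its direction. All 24 named genes lost their call when scaled per member and without Gm42418 and mitochondrial genes, with no change of sign. DESeq2 lost 16 of them and no filter 9. Without members with markers of other cells all 19 with a value lost their call. Without control replicate 2, 9 of the 16 with a value moved by more than 1 SE, and without control replicate 1, 1 of 24 did.

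For LPS minus the control mean, leaving out a control gave -8.53 to 5.53 percentage points for the share of barcodes, -18.0 to 19.98 for that of UMIs, 2.62 to 13.95 for alpha globins, -1.09 to 0.46 for Hbb-bt and 0.53 to 0.87 for Hba-a2, and -192 to 298 for genes per member. At 40% or 70% globin, at 2000 UMIs and at 15% mitochondrial UMIs these differences moved by less than the SD of the controls. Without a control the gene test has no residual degrees of freedom. Members at 90% globin could not be fitted, because control replicate 2 had 0, and 70% took its place in the interaction. No paired analysis was possible because the labels give no replicate numbers that the groups share. With 1 LPS library, treatment and library cannot be told apart.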
